A study of Mus musculus with 4 samples.

Results

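The renin-angiotensin system was followed through 9 genes (Agt, Ren1, Ace, Enpep, Agtr1a, Agtr1b, Agtr2, Mas1 and Atp6ap2), taken as every non-control probe that carried one of these names in the scanner files. These are 9 of 30919 distinct gene or transcript names on the array. Each had 1 of the 39429 non-control probes, and all 9 passed the filter on dim probes. The arrays compared Six2GFP-positive with Six2GFP-negative cells of mouse embryonic kidney at E15.5, from mice of a hybrid 129 and C57BL/6 background. Kidneys were dissected and washed, and the 2 populations were parted by fluorescence-activated sorting, with 2 arrays for each. Six2 is a transcription factor that marks the cap mesenchyme, the nephron progenitors of the developing kidney, so the negative population holds all other kidney cells that the sort let through. The labels do not say how the Six2GFP reporter was made, or whether the replicates came from separate animals, so p-values measure only the spread between these samples. The cell type label of the negative samples also reads nephron progenitor, and a description field common to all 4 samples mentions tamoxifen, which no protocol names; the groups were taken from the sample titles.

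In the renin-angiotensin system, the protease renin cuts angiotensinogen, the product of Agt, to angiotensin I, and the angiotensin-converting enzyme Ace makes angiotensin II from it. Angiotensin II acts on its type 1 receptors, which mice encode in Agtr1a and Agtr1b, and on the type 2 receptor encoded by Agtr2, while peptidases such as Enpep cut it further. In the fetal kidney renin is known from cells along the growing arteries, which later become confined to the juxtaglomerular wall, and loss of the system's genes disturbs the vessels, papilla and urinary tract.

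The renin gene was read by more than the probe that bears the name Ren1. Mice of 129 background carry a near-identical tandem copy, Ren2, which C57BL/6 mice lack, and the hybrid samples could hold transcripts of both. A probe named Ren2 and a probe for a predicted transcript named LOC100044656, described as similar to renin 2, lie downstream of the Ren1 probe on mm9 chromosome 1, and the LOC100044656 accession is also among those listed for the Ren1 probe. The sequences are shown because these 3 probes gave opposite results. They run 5′ to 3′, the first 2 are whole probes of 60 bases, and the third is the stretch from base 29 to base 58 of the Ren2 probe, in which capitals mark the polyadenylation hexamer AATAAA.
Ren1: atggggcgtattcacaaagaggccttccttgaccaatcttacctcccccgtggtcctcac
LOC100044656: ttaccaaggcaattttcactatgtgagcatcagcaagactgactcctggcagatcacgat
Ren2: cgAATAAAgatttcatgtttaaagccaaaa
The Ren1 probe lies at 135250782 to 135250841, the LOC100044656 probe at 135255035 to 135255094, 4253 bases further on, and the Ren2 probe at 135256847 to 135257268, a span of 422 bases for a 60-base probe. No pair of the 3 probes shared a run of more than 6 bases on either strand. Probes were compared only with each other, which does not show which transcripts each binds. Exon and UTR annotation of mm9 was not used here, and the positions alone place no probe in a separate Ren2 copy. Whether the 3 probes read different parts of the same gene was not resolved.

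Signals are given as log2 of the processed intensity relative to the 75th percentile of the same array, an intensity of 1511 and 1483 for positive and of 1710 and 1693 for negative cells. Levels of different probes are not comparable on this scale, so each probe is compared only with itself. Summed signals of marker lists add unlike probes and weigh the brightest most. Between 72.5% and 79.1% of spots were well above background and none was saturated. Across tested probes the arrays of a group correlated at 0.995, against at least 0.945 between groups, as a description over probes. The sort matched the labels: Six2 was higher in the positive cells by a log2 difference of 5.84 ± 0.10 (± SE throughout, n = 2 arrays in each group; limma, adjusted p = 4.8e-04), and 7 of 8 nephron progenitor markers were higher and none lower. Of 6 ureteric bud markers 5 were lower and none higher (median -4.16), and none of 5 macrophage markers passed (median -0.51). The median difference over all tested probes was 0.17, positive minus negative, and 0.41 with centring on the array median.

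Of the 9 members, 7 were lower in Six2GFP-positive cells, 1 was higher and 1 did not pass the threshold. Agtr1b and Mas1 entered the test only through the negative cells, so their low values in positive cells are bounds. With the filter set to all 4 arrays, 7 members were tested, of which 5 were lower and 1 higher. Over all 30012 tested probes, 18% were called lower and 22.7% higher, or 40.7% in either direction, and no test was made of the share of members. With centring on the array median the whole table gave 13562 probes higher and 4654 lower, against 6810 and 5400 with the 75th percentile. All 7 lower members and the Ren1 probe kept their direction under every scaling run. Because whole sorted populations were measured, fewer cells of a type and less RNA per cell cannot be told apart. With 2 arrays in each population, their number sets the precision of every value.

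**Figure D1:**
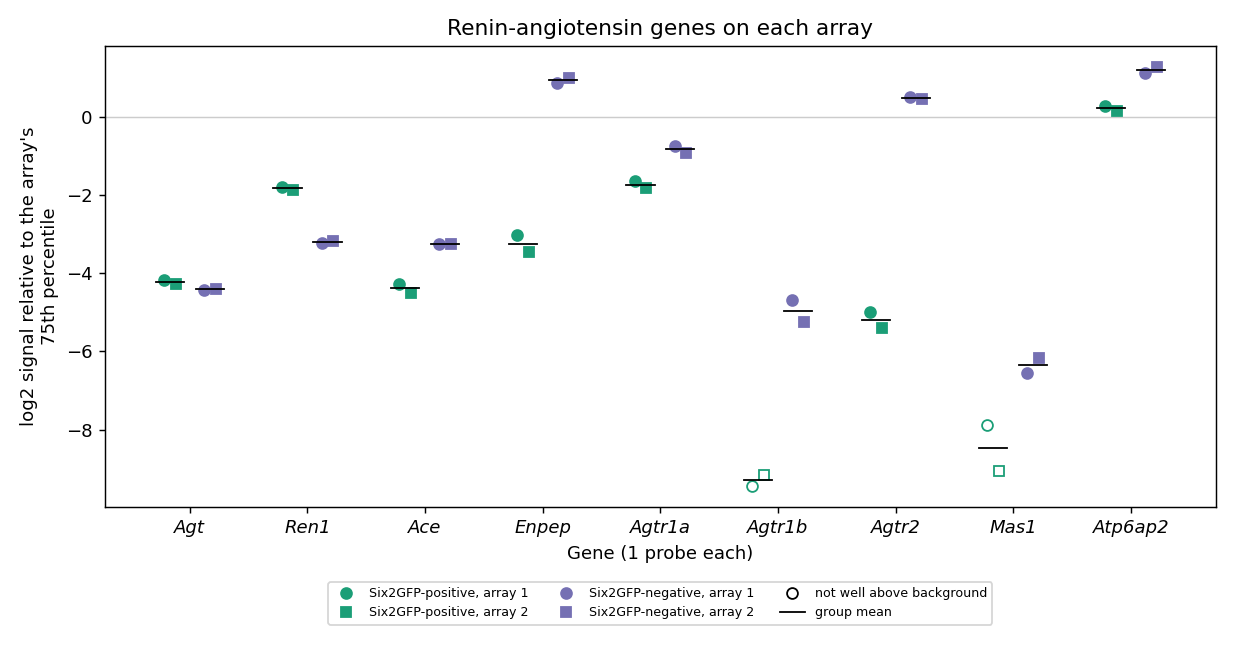
Scaled log2 signal (y axis, 0 at the 75th percentile of the array) for the 9 genes (x axis) on each array; circles are array 1, squares array 2, green Six2GFP-positive, purple Six2GFP-negative, open symbols not well above background and bars group means. Ren1 is the gene whose positive arrays lie clearly above the negative ones, and Agtr2 and Enpep have the widest gaps in the other direction among the genes with no open symbols.

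Angiotensinogen, the only known substrate of renin, did not differ past the threshold. The Agt probe (mm9 chromosome 8, 127083142 to 127083201) read -4.17 and -4.27 in positive against -4.43 and -4.40 in negative cells. The positive arrays lay slightly above the negative ones, and all 4 were well above background. The log2 difference was 0.19 ± 0.09 (limma adjusted p = 0.160), with a 95% interval from -0.06 to 0.44, and 52.0% of tested probes had a lower difference. Agt passed the threshold under 3 scalings, with a difference of 0.46 (adjusted p = 0.0343) by quantile normalization, 0.43 (0.0358) with the array median and 0.29 (0.0406) with normexp and quantile normalization.

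The Ren1 probe was the one member called higher in Six2GFP-positive cells. It read -1.80 and -1.87 in positive against -3.23 and -3.18 in negative cells. Both positive arrays lay above both negative arrays, by far more than the 0.06 and 0.05 between arrays of a group. The log2 difference was 1.37 ± 0.09, a 2.58-fold difference with a 95% interval from 2.19 to 3.05 (limma adjusted p = 0.00156). Of tested probes, 97.6% had a lower difference.

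The other renin probes went the opposite way. The LOC100044656 probe read -6.44 and -6.37 in positive against -3.57 and -3.01 in negative cells, which is 8.68-fold lower in positive cells (log2 difference -3.12 ± 0.21, limma adjusted p = 0.00190; -1.36 with normexp and the 75th percentile). Both groups were well above background and did not overlap. The Ren2 probe read -2.31 and -2.37 in positive against -0.23 and 0.48 in negative cells, which is 5.51-fold lower (-2.46 ± 0.26, limma adjusted p = 0.00581). Its 95% interval, from -3.19 to -1.73, and that of the LOC100044656 probe, from -3.71 to -2.52, lay wholly below 0, while that of the Ren1 probe, from 1.13 to 1.61, lay wholly above it. With the mean of the 3 renin probes in place of the Ren1 probe, a setting chosen after seeing the data, the difference was -1.40 ± 0.17 (adjusted p = 0.00854). The direction of renin between these populations therefore depends on the probe, and near-identical renin copies make the assignment of any of the 3 to Ren1 or Ren2 uncertain.

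The renin probes also differed in how they varied within the negative group. The LOC100044656 probe was lower on negative array 1 than on array 2 by 0.55 and the Ren2 probe by 0.71, while for the Ren1 probe that gap was 0.05. Akr1b7, an aldo-keto reductase gene known as a marker of renin cells, gave -1.24 and -0.44 on these arrays against -6.24 and -5.45 in positive cells. It was also lower on negative array 1, and 32.2-fold lower in positive than in negative cells (-5.01 ± 0.41, limma adjusted p = 0.00287). In negative cells array 1 minus array 2 had a median of -0.23 over juxtaglomerular and mural markers. It was -0.20 over ureteric bud and 0.17 over stromal markers. Of 10 juxtaglomerular and mural cell markers, 9 were lower in positive cells and none higher, with a median of -3.68; their summed signal was 21.3 to 23.1 times the array's 75th percentile on positive arrays against 42.1 to 47.2 on negative arrays, which holds a bright Mcam probe that did not pass (-0.088 ± 0.11, adjusted p = 0.533), and none was below background on both arrays of a group. Rgs5, a regulator of G protein signalling found in pericytes, differed by -4.68 ± 0.19 (adjusted p = 6.4e-04). The part of these cells in the renin values was not tested.

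**Figure D2:**
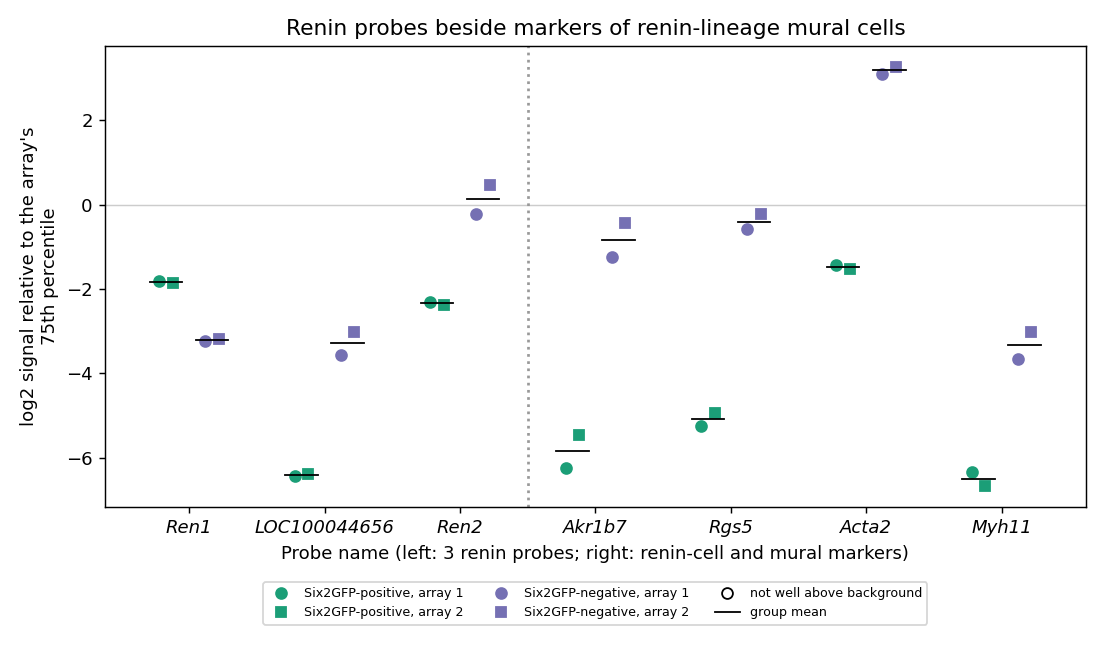
Scaled log2 signal (y axis, 0 at the 75th percentile of the array) for the 3 renin probes in order along chromosome 1 and for 4 markers of renin-lineage and mural cells (x axis); symbols as named in the key. The Ren1 probe is higher in positive cells, whereas the LOC100044656 and Ren2 probes are lower there, as are Akr1b7, Rgs5, Acta2 and Myh11.

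Ace and Enpep, the peptidases among the members that make and cut angiotensin II, were both lower in positive cells. The Ace probe (mm9 chromosome 11, 105850398 to 105850457) read -4.27 and -4.52 in positive against -3.25 and -3.26 in negative cells. Both positive arrays lay below the negative ones, and the fold was 2.21 (log2 difference -1.14 ± 0.12, limma adjusted p = 0.00565). Ace is a surface enzyme of endothelium and of tubule brush border. Endothelial markers moved the same way: 7 of 8 were lower and none higher, with a median of -5.20, Robo4 at -5.59 ± 0.12 and Cdh5 at -5.46 ± 0.11; their summed signal was 5.74 to 6.05 on positive arrays against 14.0 to 15.3 on negative arrays, which holds one bright Kdr probe that did not pass (0.084 ± 0.10, adjusted p = 0.553) beside a Kdr probe at -5.27, and none was below background on both arrays of a group. Their part in the Ace value was not tested. With normexp background correction the Ace difference was -0.70 with the 75th percentile and -0.60 with quantile normalization.

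Enpep, glutamyl aminopeptidase, removes the first residue of angiotensin II and is known from podocytes and proximal tubule. Its probe (mm9 chromosome 3, 128972910 to 128972969) read -3.03 and -3.46 in positive against 0.87 and 0.99 in negative cells. The groups were far apart, 18-fold (95% interval 12.8 to 25.3; -4.17 ± 0.18, limma adjusted p = 7.1e-04). Positive array 1 was above positive array 2 by 0.43. That gap had a median of 0.50 for proximal tubule markers and 0.54 for macrophage markers. It was 0.28 for ureteric bud, 0.12 for stromal and -0.11 for juxtaglomerular and mural markers. The Agtr2 probe had nearly the same gap as Enpep, 0.42. Of the 7 proximal tubule markers, 6 were lower in positive than in negative cells, with a median of -2.44. Hnf4a differed by -4.58 ± 0.15 and Aqp1 by -3.39 ± 0.25. The summed signal of the 7 was 1.67 to 2.19 on positive arrays against 15.7 to 17.1 on negative arrays. None of them was below background on both arrays of a group. Of 6 podocyte markers, 4 were lower and 1 higher, with a median of -2.54. Podxl differed by -4.43 ± 0.21, while Wt1, which progenitors express too, was higher (1.17 ± 0.08). Synpo did not pass by its brightest probe (0.096), beside another Synpo probe at -4.26. The podocyte sum, 39.9 to 40.1 on positive arrays against 22.0 to 22.6 on negative arrays, was higher on the positive arrays and holds the bright Wt1 probe, and none of these markers was below background on both arrays of a group. The part of tubule and podocyte cells in the Enpep value was not tested. Without positive array 1 or 2 the Enpep difference was -4.38 or -3.96.

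All 4 receptor genes of angiotensin peptides were called lower in positive cells, to very different degrees, with only bounds for Agtr1b and Mas1. Agtr2, the type 2 receptor gene, known for its strong expression in fetal mesenchyme, had the most negative difference among the 7 members well above background on all 4 arrays. Its probe (mm9 chromosome X, 21065564 to 21065623) read -4.98 and -5.40 in positive against 0.49 and 0.44 in negative cells. The processed signals before scaling were 47.8 and 35.1 against 2402 and 2304, so positive cells gave a weak signal, still well above background, and negative cells a strong one. The fold was 50.5 (95% interval 36.5 to 69.9; -5.66 ± 0.17, limma adjusted p = 5.0e-04), and 0.0900% of tested probes had a lower difference. With normexp background correction the Agtr2 difference was -4.33 with the 75th percentile and -4.36 with quantile normalization, both outside that interval.

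Like most endothelial, ureteric bud, and juxtaglomerular and mural markers (medians -5.20, -4.16 and -3.68), most stromal markers moved with Agtr2. Of 8, 7 were lower in positive cells and none higher, with a median of -4.65; Pdgfra, the platelet-derived growth factor receptor alpha gene of interstitial mesenchyme, differed by -5.39 ± 0.19 (adjusted p = 5.6e-04), and Tbx18, which did not clear background in positive cells, was lower by at least 26.2-fold. Foxd1 did not pass (-0.20 ± 0.15, limma adjusted p = 0.338). The summed signal of the 8 markers was 5.59 to 7.48 on positive arrays against 80.4 to 89.7 on negative arrays. Pdgfra was also among the 3 genes whose centred values over the 4 arrays lay nearest to those of Agtr2, at a Euclidean distance of 0.29, after Sim1 at 0.27 and Rsad2 at 0.28, among 27618 probes well above background on all arrays. For the Ren1 probe the nearest were Olfr1382, Rcsd1 and Pax2, at 0.05, 0.05 and 0.06, and 203 probes lay within 0.25. With 4 arrays such likeness mainly repeats the size of the difference, and the part of stromal cells in the Agtr2 value was not tested.

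Agtr1a and Agtr1b, the paired type 1 receptor genes, behaved differently in size. The Agtr1a probe (mm9 chromosome 13, 30474638 to 30474697) read -1.66 and -1.83 in positive against -0.74 and -0.93 in negative cells. It was well above background in both populations, with a modest gap of 1.88-fold (95% interval 1.49 to 2.37; -0.91 ± 0.12, limma adjusted p = 0.0102). The Agtr1b probe (mm9 chromosome 3, 20213539 to 20213598) gave -9.43 and -9.16 in positive cells, where it did not clear background, and -4.70 and -5.25 in negative cells, where it did. Agtr1b was therefore at least 4.43-fold lower in positive cells, where this bound sets the negative mean against the lowest signal well above background on each positive array. The limma adjusted p of 0.00108 belongs to the fitted difference, which uses positive signals not above background, and is no support for the bound. With normexp, which adds an offset of 50 to every signal, the Agtr1b difference was -0.70 with the 75th percentile and -0.77 with quantile normalization. The Agtr1a and Agtr1b probes shared no run of more than 6 bases, which does not show whether either binds the other gene's transcript. Of 5 adrenal cortex markers, a tissue where type 1 receptors are abundant, 4 were tested, 1 was lower and none higher: Cyp11a1 was at least 3.34-fold lower, and Hsd3b1 was not well above background in either population. Their summed signal was 0.28 to 0.34 on positive arrays against 0.20 to 0.27 on negative arrays.

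Mas1, a receptor gene for a shorter angiotensin peptide, was dim throughout. Its probe (mm9 chromosome 17, 13033943 to 13034002) gave -7.88 and -9.05 in positive cells, where it did not clear background, and -6.56 and -6.16 in negative cells, with processed signals of 18.1 and 23.7 there. The bound was at least 1.70-fold lower in positive cells. The limma adjusted p of 0.0290 again belongs to the fitted difference and not to the bound. The Mas1 call was lost with normexp and the 75th percentile (-0.095, adjusted p = 0.436), with normexp and quantile normalization (-0.25, 0.0850), without a filter on dim probes (0.0561), and without negative array 1 or 2 (0.0873 and 0.119).

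Atp6ap2, the prorenin receptor gene and an accessory subunit of the vacuolar proton pump, is expressed in most cells. Its probe (mm9 chromosome X, 12193624 to 12193683) read 0.26 and 0.15 in positive against 1.11 and 1.27 in negative cells. The groups did not overlap, and the fold was 1.98 lower in positive cells (-0.98 ± 0.11, limma adjusted p = 0.00586).

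**Figure D3:**
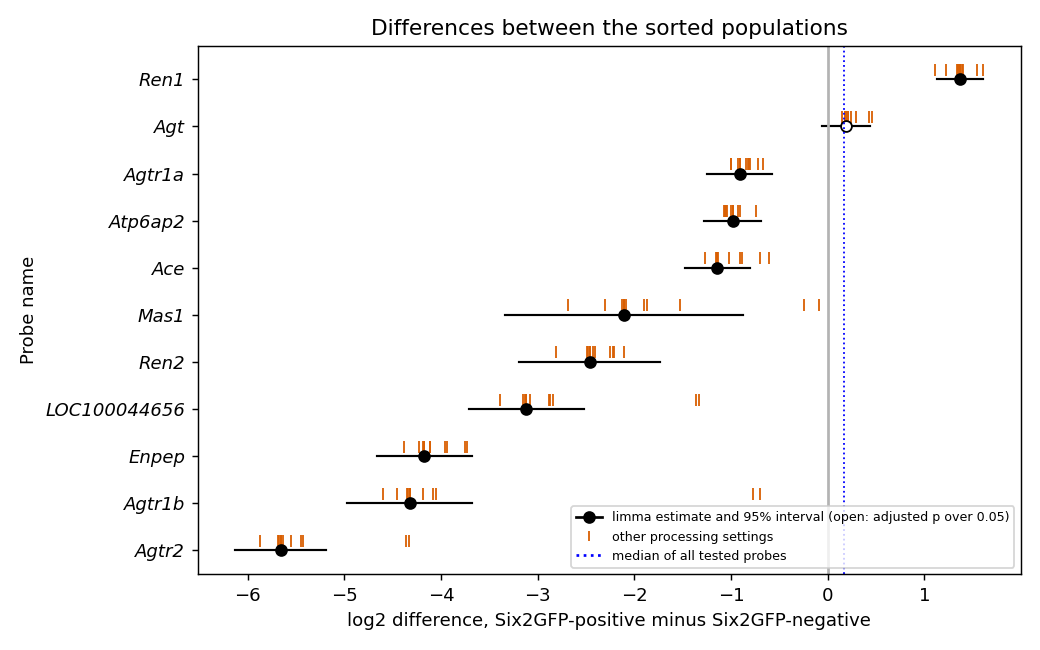
Log2 difference between populations, positive minus negative (x axis), for the 9 members and the other 2 renin probes (y axis); black points and lines are limma estimates with 95% intervals, open where the adjusted p exceeded 0.05, orange ticks the values under other settings and the dotted line the median of all probes, 0.17. All ticks of the lower members stay below 0 and all ticks of the Ren1 probe stay above it, while with normexp the other renin probes and every lower member but Atp6ap2 move towards 0. The points of Agtr1b and Mas1 are fitted values of probes not well above background in positive cells.

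The rest of the pathway was described with 4 further lists of 45 genes, of which 43 were tested. Of these, 18 were lower and 9 higher in positive cells, that is 41.9% and 20.9%, against 18% and 22.7% of all probes, and their median was -0.09 against 0.17. Lists are counted by the brightest probe of each gene. These lists were chosen with earlier results of the data known.

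Among 17 other peptidases of angiotensins, 10 fell in positive cells and 1 rose, with a median of -0.58. The 10 include the Ren2 probe described above. Cpa3 and Cma1, the mast cell proteases carboxypeptidase A3 and chymase, did not clear background in positive cells and were lower by at least 77.2-fold and 9.26-fold (adjusted p of the fitted differences 0.00173 and 0.00413). Mast cell markers moved the same way: of 7, 4 were tested, 3 were lower and none higher, with Hdc at -3.38 ± 0.15 and Mcpt4 at least 4.80-fold lower. Their summed signal was 0.79 to 0.87 on positive arrays against 3.16 to 3.30 on negative arrays. Tpsb2 did not pass by its brightest probe (0.29), beside another Tpsb2 probe at -2.30. Fcer1a and Ms4a2, subunits of the IgE receptor, were not well above background in either population, and the part of mast cells in these values was not tested. Among genes named after their values were seen, the endopeptidase gene Mme differed by -3.79 ± 0.09 and the aminopeptidase gene Anpep by -2.17 ± 0.10, and Thop1, thimet oligopeptidase, rose (0.79 ± 0.14, adjusted p = 0.0204), a call lost without positive array 1 or 2 or negative array 1. Without negative array 1 or 2, 6 of the 17 were lower. Among other listed peptidase genes, Rnpep and Prcp were lower (-0.58 ± 0.08 and -0.36 ± 0.09, limma adjusted p = 0.0126 and 0.0469). Prep, Dpp3, Ctsa and Ctsd gave 0.13, 0.12, 0.10 and 0.16 and did not pass. A dimmer Ctsa probe gave 0.63.

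Partners of the angiotensin receptors were divided. Of 8 genes, 7 were tested, 3 were lower and 1 higher, with a median of -0.16. Arap1, an adaptor of receptor trafficking, differed by -2.61 ± 0.10 (adjusted p = 5.8e-04), and a dimmer probe of it by -1.48, the arrestin gene Arrb1 by -1.04 ± 0.09 (0.00299) and Mtus1, which encodes a binding partner of the type 2 receptor, by -0.83 ± 0.09 (0.00647). Gnaq, the G protein alpha subunit through which type 1 receptors signal, was higher (0.49 ± 0.08, adjusted p = 0.0177), a call that was lost without any 1 of the 4 arrays. Agtrap, the type 1 receptor-associated protein gene, gave -0.16 ± 0.11 and did not pass. Mrgprd was not well above background in either population and was not tested.

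Regulators of the renin gene showed small differences in both directions: 6 of 15 were higher and 4 lower, with a median of 0.02. Hoxd10, a homeobox factor that binds the renin promoter, was higher by 0.97 ± 0.10 (adjusted p = 0.00571), and Nr2f2, an orphan nuclear receptor gene, by 0.90 ± 0.09 (0.00524). Adcy5, an adenylyl cyclase of the cyclic AMP pathway that drives renin, was lower (-0.99 ± 0.12, 0.00739). Rbpj, the Notch pathway factor needed for renin cell identity, was higher by 0.75 ± 0.11, named after its value was seen. Leaving out 1 array left 3 of these genes higher and 1 or 2 lower, whichever array it was.

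In the aldosterone branch, the steroid arm that angiotensin II controls, 4 of 5 genes were tested, 1 was higher and 1 lower. Hsd11b2, which protects the mineralocorticoid receptor from glucocorticoids, was higher by 1.27 ± 0.09 (adjusted p = 0.00191), and the kinase gene Sgk1 was lower (-2.66 ± 0.15, 0.00116). Nr3c2, the mineralocorticoid receptor gene, gave -0.20 ± 0.10 and did not pass. Cyp11b2, aldosterone synthase, was not well above background in either population.

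**Figure D4:**
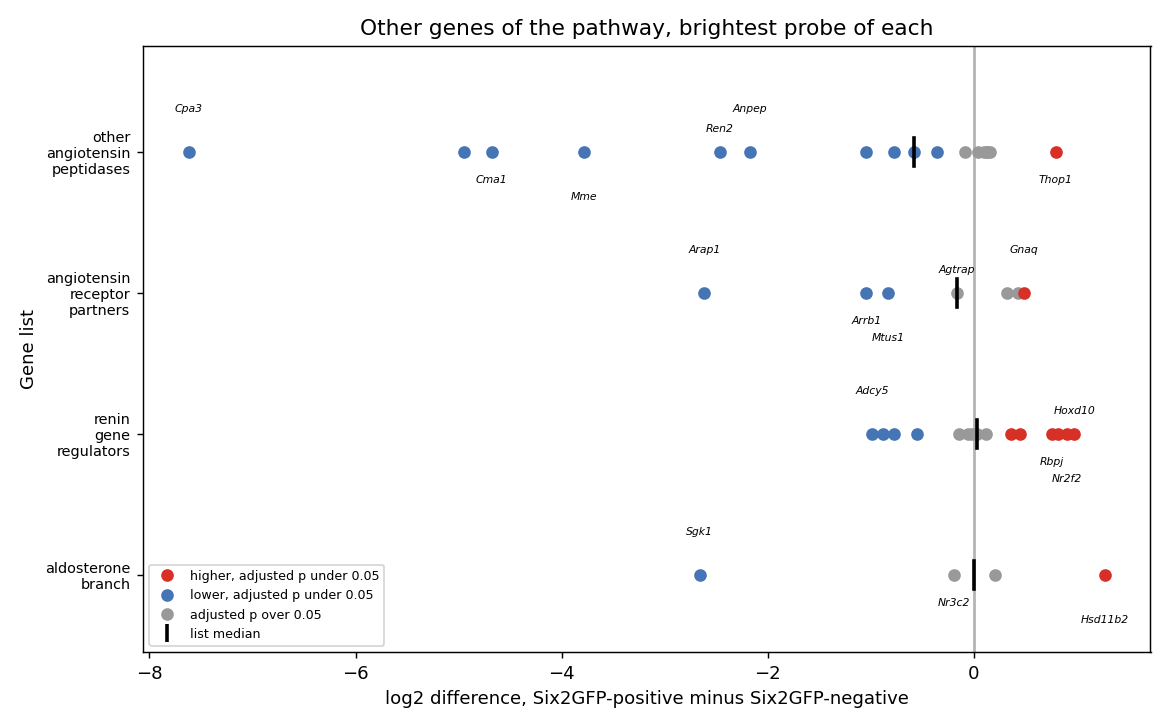
Log2 difference, positive minus negative (x axis), of the 43 tested genes in 4 lists (y axis), by brightest probe, with labels on some of the genes described in the text; red and blue are past an adjusted p of 0.05, grey are not, and black bars are list medians of -0.58, -0.16, 0.02 and 0.00 from top to bottom. The peptidase list reaches furthest to the left, where Cpa3 and Cma1 are fitted values of probes not above background in positive cells, and the renin regulators stay within about 1 log2 unit.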

How the data were processed

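Cy3-labelled RNA of each sample was hybridised to its own single-colour Agilent array, per the labels. Per the file headers, the authors quantified the images with Agilent Feature Extraction; the deposited intensity values are linear, detrended and background-subtracted within an array, with no scaling between arrays. The deposited series table repeats these intensity values (at least 99.8% of probes within 0.01 log2); its medians were 114 and 110 in positive and 158 and 144 in negative cells.

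Here outlier spots were dropped, spots of a probe averaged, and log2 of the processed signal taken minus the array's 75th percentile. The 30012 probes well above background on each array of either group were tested with limma (version 3.58.1, R 4.3.3; empirical Bayes moderation, two-sided, Benjamini-Hochberg over all of them, threshold 0.05). Errors are standard errors from that fit. Listed genes were found by name or accession and represented by their brightest tested probe. The fit was tested on simulated data. Alternatives were other scalings, background corrections, filters and variance models, a replicate block, and each array left out. All members were named, with up to 3 genes past the threshold from each pathway list and up to 2 from each marker list; any others were chosen after their values were seen. A few listed genes are counted in their lists but not reported by name here. Members and lists were chosen with earlier results of these data known. The arrays shared 1 slide and scan time.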

Additional observations from a re-analysis of the deposited data

How the results depend on the processing

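Members kept their direction under every setting run, apart from the mean of the 3 renin probes, which turned Ren1 to -1.40 and was chosen after seeing the data. Agt and Mas1 aside, they also kept their side of the threshold. Agt passed with quantile normalization (0.46), the array median (0.43), and normexp with quantile normalization (0.29), which made 2 members higher in each of these 3. Mas1 no longer passed with normexp and the 75th percentile (-0.095), normexp and quantile normalization (-0.25), or no filter on dim probes (-2.11). With 1 array left out its difference was -2.69 to -1.52; such fits assume that the lone array varies like the other group. Mas1 and Agtr1b have no value with the filter on all 4 arrays. Dim probes are limited by background: Agtr1b and Mas1 have only bounds in positive cells.

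List counts moved as follows, with some changes by 1 gene left out. With the array median 2 aldosterone genes, 3 receptor partners and 2 peptidases were higher and 2 renin regulators lower. Lower peptidases, 10 in the main fit, were 7 with the array median. They were 8 with no filter on dim probes, the filter on all 4 arrays or the replicate block. Regulators higher, 6 in the main fit, were 4 with no filter on dim probes. Quantile normalization, alone or after normexp, gave 2 aldosterone genes higher. Partners higher were 2 with the filter on all 4 arrays, the intensity trend or normexp with quantile normalization, and 3 with normexp and the 75th percentile. With 1 array left out, 0 partners, 0 to 1 peptidases and 3 regulators were higher, and 6 to 8 peptidases and 1 to 2 regulators lower.

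The replicate numbers mark no stated pairing, and deviations of same-numbered arrays correlated at 0.22 across probes. With the replicate number as a block 7 members were lower and 1 higher, Ren1 at 1.37 with an adjusted p of 0.00666 and Mas1 at -2.11 with 0.0495, and the table gave 6236 probes higher and 5435 lower. Over the whole table, leaving out 1 array gave 1838 to 2740 probes higher and 3742 to 4384 lower, no filter on dim probes 3792 and 4715, and centring on the array median 13562 and 4654. The causes were not tested.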
